A study of Mus musculus with 6 samples.

Results

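The 10 genes described here are the zinc finger factors Egr1, Egr2 and Egr3, the orphan nuclear receptors Nr4a1, Nr4a2 and Nr4a3, the NFAT factors Nfatc1, Nfatc2 and Nfatc3, and the surface antigen Cd69. They were chosen by symbol, as readouts of pre-T cell receptor and calcium signalling, and all 10 were found among the 41254 gene symbols of the table. RNA was sequenced from DN3a thymocytes of adult C57BL/6 mice, T cell precursors without CD4 and CD8 that are rearranging the receptor beta locus. The 3 transgenic libraries are labelled Tg_Cd2_GATA3, and the 3 libraries set against them are labelled wild type, on the same strain. The labels name Cd2 and GATA3 and give no more of the construct, the line or the sorting gate. The study's title links the abundance of the T cell transcription factor GATA3 to allelic exclusion at that locus, and the comparison asks which RNAs differ when GATA3 is overexpressed.

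In thymocytes that have made a working beta chain, the pre-T cell receptor signals through 2 main routes. Calcium entry activates the phosphatase calcineurin, which strips phosphate from NFAT proteins and lets them enter the nucleus, so that NFAT activity is set mostly on the protein and not by its mRNA. The Ras-ERK route acts on serum response factor and its partners, which switch on the Egr genes within minutes. Egr1, Egr2 and Egr3 promote passage through beta selection, in part through Id3, an inhibitor of E proteins. Nr4a1, also called Nur77, and its relatives Nr4a2 and Nr4a3 are rapidly induced by antigen receptor signals, and Cd69, a C-type lectin that holds cells in tissue, is a standard marker of recent signalling. DN3a cells stand before this checkpoint. Many immediate early genes also respond to the handling of cells.

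Promoters of some of the inducible genes are shown first because elements known to answer these signals were searched for in them. Sequence is RefSeq's, build GRCm38.p6, and covers the 250 bases before an annotated start, 5′ to 3′ on the gene's strand. Capitals mark TGACG on either strand, the core of the cyclic AMP response element, and the CArG box, the site of serum response factor. The window of Egr2, a factor with roles in hindbrain and myelin as well as in T cells, is at chr10:67537619-67537868 on the plus strand, Nr4a1 at chr15:101266596-101266845 on the plus strand, Nr4a2 at chr2:57124004-57124253 on the minus strand and Nr4a3 at chr4:48045055-48045304 on the plus strand.
Egr2: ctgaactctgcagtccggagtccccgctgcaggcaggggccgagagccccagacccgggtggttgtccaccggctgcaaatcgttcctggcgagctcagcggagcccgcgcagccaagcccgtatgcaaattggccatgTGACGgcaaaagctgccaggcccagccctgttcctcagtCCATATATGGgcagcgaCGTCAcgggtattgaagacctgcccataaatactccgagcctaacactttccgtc
Nr4a1: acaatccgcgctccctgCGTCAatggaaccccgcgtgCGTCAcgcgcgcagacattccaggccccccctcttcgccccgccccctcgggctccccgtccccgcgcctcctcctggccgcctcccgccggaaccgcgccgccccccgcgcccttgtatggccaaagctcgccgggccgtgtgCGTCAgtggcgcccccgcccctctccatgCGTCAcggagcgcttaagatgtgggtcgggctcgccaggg
Nr4a2: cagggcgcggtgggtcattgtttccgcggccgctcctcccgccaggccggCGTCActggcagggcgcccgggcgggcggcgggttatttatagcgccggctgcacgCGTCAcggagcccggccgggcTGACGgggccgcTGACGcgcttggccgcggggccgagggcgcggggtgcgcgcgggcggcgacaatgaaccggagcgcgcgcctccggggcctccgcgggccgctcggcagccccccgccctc
Nr4a3: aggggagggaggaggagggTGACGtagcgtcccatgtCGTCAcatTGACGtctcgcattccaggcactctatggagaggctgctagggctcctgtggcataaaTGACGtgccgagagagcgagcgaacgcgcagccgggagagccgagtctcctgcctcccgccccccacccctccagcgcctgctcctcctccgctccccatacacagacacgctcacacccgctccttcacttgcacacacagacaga

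The Nr4a windows printed above hold 4 TGACG matches each, and the Egr2 window holds 2 of them on either side of a CArG box that ends 62 bases before the start. Promoter sequence was read for 6 of the 10 genes, in 12 windows that overlap for Egr2. Egr1, Egr3, Nfatc1 and Cd69 had no window and were not searched. The Nr4a2 window lies before the start of Nr4a2-203 and Nr4a2-206, at 57124003. Nr4a2-201 and Nr4a2-205, the latter the leading Nr4a2 transcript by mean level, start at 57115038, and no window covers that start. TGACG was present in 7 of the 12 windows, where overlapping Egr2 windows repeat the same sites. By gene, at least 1 window of 5 genes held it (Egr2, Nr4a1, Nr4a2, Nr4a3 and Nfatc3). Among 32851 mouse promoter windows of the same length, 17.8% hold TGACG and 1.47% a CArG box, which here was seen at Egr2. The Egr site (GCGTGGGCG or GCGGGGGCG) was found at Nr4a1 and is in 3.06% of all windows. The NFAT letters GGAAAA were found in 1 window, of Egr2, and are in 20.4% of all windows. None of the 12 windows held the GATA site (A or T, then GATA, then A or G), which 26.5% of all windows hold, or the AP-1 letters TGACTCA or TGAGTCA, which 4.46% hold. The full element TGACGTCA, which contains TGACG, was also absent from the 12 windows and is in 1.55% of all. Both strands were searched. A match is a run of letters and no evidence of binding, and a missing match says only that these letters are not in that window.

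The libraries held 39022281 to 46985605 fragments assigned to transcripts. Gata3 itself stood at 58.6, 53.6 and 61.6 CPM in transgenic replicates 1, 2 and 3, against 49.1, 38.2 and 43.5 CPM in the wild-type replicates, a log2 fold change of 0.41 ± 0.10 (SE) that did not pass the threshold (quasi-likelihood test of edgeR, p adjusted by Benjamini and Hochberg = 0.17). CPM here means a gene's fragments per 1000000 of the library, scaled by TMM. Summed CPM of 6 DN3a markers (Il2ra, Ptcra, Rag1, Notch1, Dtx1, Cd3e) was 4208 to 4441 in transgenic and 4084 to 4403 in wild-type libraries. Summed markers of myeloid and dendritic cells (5 of 6 listed, mostly Lyz2) were 23.9 to 27.1 CPM in transgenic and 18.1 to 23.3 CPM in wild-type libraries, and those of B cells (4 of 4 listed, Pax5 at 0 throughout) 0.33 to 0.46 CPM and 0.0438 to 0.258 CPM. Both sums lay higher in the transgenic libraries, and their part in the results was not tested. Erythroid markers summed to 2.73 to 5.87 CPM in transgenic and 0.43 to 3.30 CPM in wild-type libraries, thymic epithelial markers (nearly all Epcam, with Krt5 and Foxn1 at or near 0) to 76.8 to 91.8 CPM and 74.9 to 85.1 CPM, and NK markers (nearly all Gzma, with Ncr1 at 0) to 161 to 255 CPM and 201 to 276 CPM. Transgenic replicate 3 and wild-type replicate 1 carried Y-linked RNA, and the other 4 libraries carried next to none. No label ties the samples to separate animals, so the p-values speak only of the spread among these 6 samples, and some of that may be technical.

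None of the 10 genes passed the test between the groups. edgeR called 0 of 10 after adjustment over the 14653 genes tested, against 0.0136% of all genes, and 1 of 10, Nfatc1, had an unadjusted p under 0.05, against 13.4% of all genes. DESeq2 likewise called 0 of the 3 members for which it gave an adjusted p, with 1 of 10 under an unadjusted 0.05, while it called 5.23% of genes. Adjusted p-values ran from 0.277 to 0.972 in edgeR. Of the 10, 7 had a log2 fold change above 0, as did 50.2% of all genes tested, and their median was 0.19, against 0.001 over all genes. For 1 of the 10, Nfatc1, all transgenic CPM values lay above all wild-type values, as they did for 8.73% of all genes tested, while 18.8% of all genes had groups apart in either direction. All 10 genes passed the filter on low counts.

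**Figure D1:**
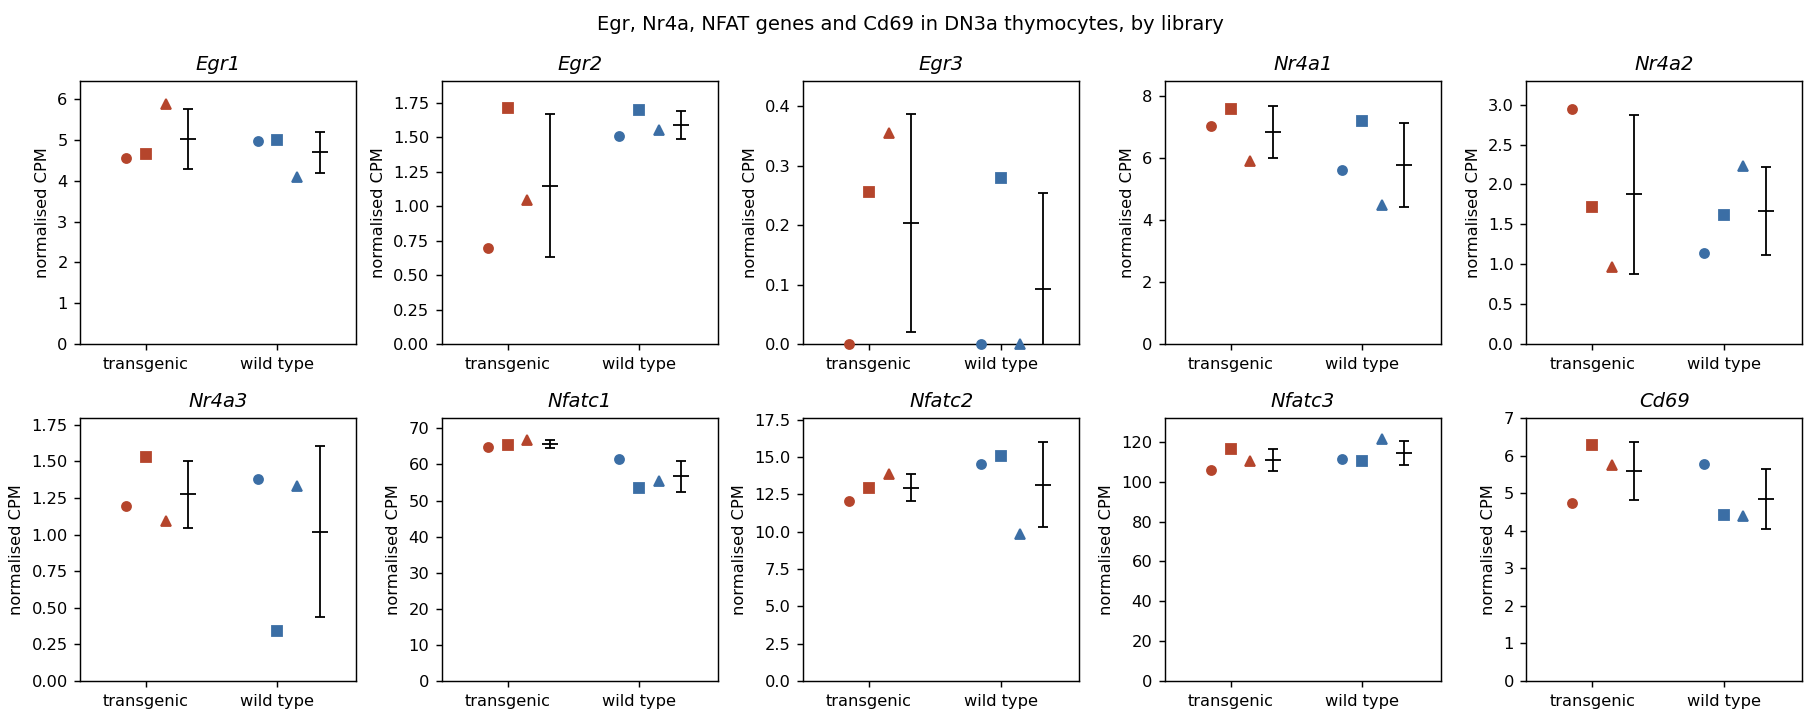
Normalised CPM (y axes, each from 0) of the 10 genes in the 3 transgenic (left) and 3 wild-type (right) libraries, with circles for replicate 1, squares for replicate 2, triangles for replicate 3 and bars for the mean and SD, cut at 0 for Egr3. Nfatc1 at 64.9 to 66.8 CPM in transgenic and 53.4 to 61.6 CPM in wild-type libraries is the gene whose groups do not overlap.

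The levels of the 10 genes spanned a wide range, with Nfatc3 and Nfatc1 on top and Egr3 at the bottom. On the FPKM scale, which corrects for length, Nfatc3 averaged 19.99 ± 1.90 in transgenic and 20.3 ± 1.29 in wild-type libraries (SD, n = 3 each), and Nfatc1 12.5 ± 0.49 and 10.8 ± 0.61 FPKM (SD, n = 3 each). Cd69 followed at 3.54 ± 0.61 FPKM in transgenic and 2.99 ± 0.44 FPKM in wild-type libraries (SD, n = 3 each). The ranges of Nfatc3 and Nfatc1 did not overlap with those of their neighbours in either group. That of Cd69 lay above Nr4a1 and Nfatc2 in transgenic libraries, while in wild-type libraries it overlapped with that of Nr4a1. Nr4a1, at 2.56 ± 0.25 and 2.18 ± 0.47 FPKM in transgenic and wild-type libraries, and Nfatc2, at 2.29 ± 0.02 and 2.24 ± 0.32 FPKM (SD, n = 3 each), did not differ from each other beyond their spread and changed places between the groups. Egr1, at 1.14 ± 0.17 and 1.10 ± 0.15 FPKM in transgenic and wild-type libraries (SD, n = 3 each), Nr4a3, Nr4a2 and Egr2 lay lower, with ranges that overlapped from one neighbour to the next. Egr3 came last, at 0.14 ± 0.13 FPKM in transgenic libraries, where its range met that of Egr2, and at 0.06 ± 0.10 FPKM in wild-type libraries (SD, n = 3 each), where it lay below its neighbour. Against the mean FPKM of all genes tested, Nfatc3 stood at percentile 67.4, Nfatc1 at 54.7, Cd69 at 34.0, Nr4a1 at 30.2, Nfatc2 at 29.7, Egr1 at 21.9, Nr4a3 at 21.5, Nr4a2 at 19.5, Egr2 at 15.5 and Egr3 at 1.75.

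Egr1, the family member most used as a readout of ERK signalling, was the most abundant Egr gene and was nearly level between the groups. Egr1 (ENSMUSG00000038418, chromosome 18, 34859823 to 34864984, plus strand, mm10) was counted at 190, 182 and 231 fragments in transgenic replicates 1, 2 and 3, and 227, 232 and 185 in the wild-type replicates. That is 4.55, 4.65 and 5.87 CPM in transgenic libraries and 4.98, 4.99 and 4.10 CPM in wild-type libraries. Transgenic replicate 3 was the highest and wild-type replicate 3 the lowest, with the other 4 libraries between them. The log2 fold change was 0.10 ± 0.20 (SE), with a 95% interval from -0.34 to 0.54, so the data leave room for a change between 0.79-fold and 1.45-fold (edgeR, adjusted p = 0.883).

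For Egr2, 2 of the 3 transgenic libraries lay below all wild-type libraries and the other one above them, so the groups overlapped. Egr2 (ENSMUSG00000037868, chromosome 10, 67535475 to 67542188, plus strand) was counted at 29, 67 and 41 fragments in transgenic replicates 1, 2 and 3, against 69, 79 and 70 in the wild-type replicates. The CPM values were 0.69, 1.71 and 1.04 in transgenic libraries and 1.51, 1.70 and 1.55 in wild-type libraries. Transgenic replicate 2 was the highest of all 6 libraries and transgenic replicate 1 the lowest, and the coefficient of variation was 45.0% in the transgenic group and 6.24% in the wild-type group. The log2 fold change was -0.47 ± 0.42 (SE), with a 95% interval from -1.41 to 0.48 (edgeR, adjusted p = 0.695). Without transgenic replicate 1 it was -0.20, and without transgenic replicate 2 it was -0.87.

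Egr3, which acts with Egr1 and Egr2 in early thymocytes, was near the limit of detection. Egr3 (ENSMUSG00000033730, chromosome 14, 70077203 to 70082614, plus strand) was counted at 0, 10 and 14 fragments in transgenic replicates 1, 2 and 3, and 0, 13 and 0 in the wild-type replicates. A count of 0 allows up to 3 fragments, or 0.0638 to 0.0769 CPM depending on the library, counting error only. The table lists 1 Egr3 transcript of 1416 bases, whereas the longest coding Egr3 transcript of GENCODE M21 has 3940 bases, so the listed entry covers only a part of that transcript. The 95% interval of the log2 fold change, -2.30 to 4.47, was too wide to set a useful bound (edgeR, adjusted p = 0.817). Summed over the 3 Egr genes, the libraries held 5.25, 6.62 and 7.27 CPM in transgenic replicates 1, 2 and 3, against 6.49, 6.97 and 5.65 CPM in the wild-type replicates, and the groups overlapped.

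Nr4a1 was the leading gene of its family and lay slightly higher in the transgenic mean, within the spread. Nr4a1 (ENSMUSG00000023034, chromosome 15, 101254269 to 101274795, plus strand) was counted at 293, 297 and 233 fragments in transgenic replicates 1, 2 and 3, and 256, 335 and 203 in the wild-type replicates. In CPM these were 7.02, 7.59 and 5.92 in transgenic libraries and 5.61, 7.21 and 4.50 in wild-type libraries. Wild-type replicate 2 lay above transgenic replicates 1 and 3. The log2 fold change was 0.25 ± 0.21 (SE), with a 95% interval from -0.22 to 0.71, that is from 0.86-fold to 1.64-fold (edgeR, adjusted p = 0.671). Leaving out wild-type replicate 3 gave 0.09, and leaving out wild-type replicate 2 gave 0.44.

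Nr4a2 and Nr4a3, inducible receptors that share the DNA-binding site of Nr4a1, were rare and scattered between libraries. Nr4a2 (ENSMUSG00000026826, chromosome 2, 57106830 to 57124003, minus strand) was counted at 123, 67 and 38 fragments in transgenic replicates 1, 2 and 3, and 52, 75 and 101 in the wild-type replicates. Each group thus held both high and low libraries, and the log2 fold change was 0.17 ± 0.46 (SE; edgeR, adjusted p = 0.914). Nr4a3 (ENSMUSG00000028341, chromosome 4, 48045153 to 48086447, plus strand) was counted at 50, 60 and 43 fragments in transgenic replicates 1, 2 and 3, and 63, 16 and 60 in the wild-type replicates. Wild-type replicate 2 stood low and the other 5 libraries lay between 43 and 63 fragments, with a log2 fold change of 0.32 ± 0.54 (SE; edgeR, adjusted p = 0.856). Summed over the 3 Nr4a genes, the libraries held 11.2, 10.8 and 7.98 CPM in transgenic replicates 1, 2 and 3, against 8.13, 9.17 and 8.06 CPM in the wild-type replicates, and transgenic replicate 3 was the lowest of all.

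For these 2 genes, as for Nfatc2 below, a part of the counts lay on transcripts that GENCODE M21 does not type as protein-coding. That part varied between libraries. For Nr4a3, Nr4a3-204, a processed transcript of 895 bases, held 93.6% of the gene's mean FPKM. The coding transcripts of Nr4a3 took 12.0, 24.7 and 9.34 fragments in transgenic replicates 1, 2 and 3, and 3.47, 0 and 35.8 in the wild-type replicates. For Nr4a2, coding transcripts were estimated at 0.00205, 57.0 and 13.7 fragments in transgenic replicates 1, 2 and 3, and 42.6, 63.1 and 101 in the wild-type replicates. The groups overlapped for both Nr4a2 and Nr4a3. The FPKM sum of Nr4a2 in transgenic replicate 1, 2.22, included 0.697 from 1 fragment on a transcript of 182 bases, and that of Egr2 in transgenic replicate 2, 1.09, included 0.643 from a transcript of 773 bases. Such short transcripts move a summed FPKM, and on CPM per kilobase of the longest listed transcript, a scale chosen after these values were seen, Nr4a3 stood ninth in both groups, at 0.22 in transgenic and 0.18 in wild-type libraries.

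**Figure D2:**
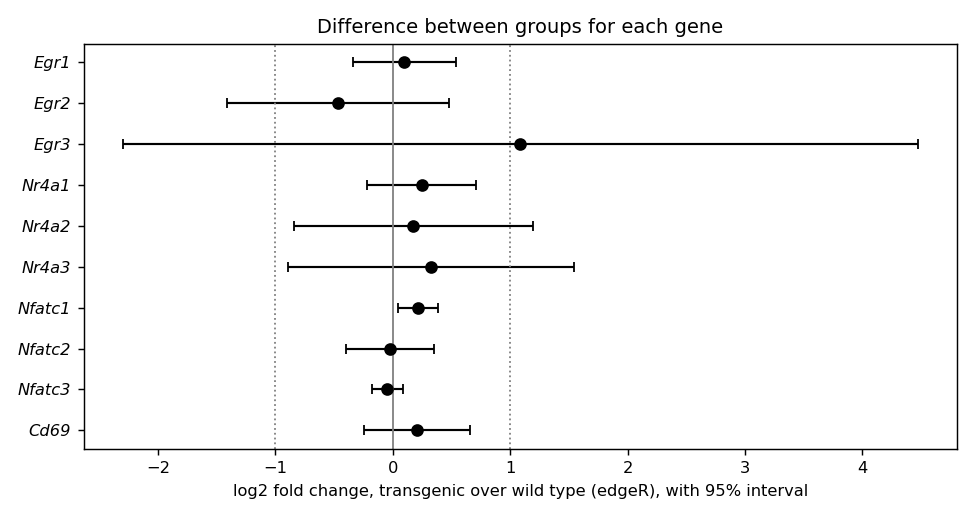
Log2 fold change of each gene, transgenic over wild type (x axis; point, edgeR estimate; bar, 95% interval; dotted lines at -1 and 1). The interval is narrowest for Nfatc3, from -0.18 to 0.09, and widest for Egr3, from -2.30 to 4.47, and that of Nfatc1 lies above 0, from 0.04 to 0.38, before adjustment for the number of genes.

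Among the NFAT genes, Nfatc1, the member whose own transcription is raised by NFAT and calcium signals, came nearest to a difference. Nfatc1 (ENSMUSG00000033016, chromosome 18, 80606205 to 80713071, minus strand) stood at 64.9, 65.4 and 66.8 CPM in transgenic replicates 1, 2 and 3, and at 61.6, 53.4 and 55.3 CPM in the wild-type replicates. All 3 transgenic libraries lay above all 3 wild-type libraries, with wild-type replicate 1 nearest to them. The means were 65.7 ± 1.01 CPM in transgenic and 56.8 ± 4.28 CPM in wild-type libraries (SD, n = 3 each), a log2 fold change of 0.21 ± 0.08 (SE), or 1.16-fold with a 95% interval from 1.03-fold to 1.30-fold. This did not pass after adjustment (edgeR, unadjusted p = 0.0207, adjusted p = 0.277). Without wild-type replicate 1, a fit in which 3.32% of all genes were called, the adjusted p of Nfatc1 was 0.0637 and its log2 fold change 0.27. GENCODE places an antisense gene over 2571 bases of Nfatc1. Whether counting used strand is not stated in the labels, so reads of the pair cannot be told apart.

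Nfatc1 is read from 2 promoters, and in T cells the upstream one is known as the inducible one, while the downstream one gives a steady level. The table lists 4 Nfatc1 transcripts, 2 from each promoter region, and the starts of Nfatc1-202 and Nfatc1-203 lie 4885 bases apart. Nfatc1-202, from the upstream start, was estimated at 1.57, 1.21 and 1.41 FPKM in transgenic replicates 1, 2 and 3, against 0.78, 1.13 and 0.71 FPKM in the wild-type replicates. The transgenic values all lay above the wild-type values, by a narrow margin between transgenic replicate 2 and wild-type replicate 2. Its share of the gene's FPKM was 13.0, 9.79 and 10.9% in transgenic replicates and 6.90, 11.2 and 6.51% in wild-type replicates, and these shares overlapped. From the downstream start, Nfatc1-203 was at 5.88, 5.94 and 6.09 FPKM in transgenic replicates and 5.21, 4.95 and 5.83 FPKM in wild-type replicates, again without overlap. Nfatc1-201, which shares that start and ends earlier, was at 4.60, 5.18 and 5.50 FPKM in transgenic replicates and 5.34, 4.05 and 4.33 FPKM in wild-type replicates, with overlap. The fourth transcript, Nfatc1-204, was listed at 0 in all libraries. Groups that do not overlap were seen in 13% of all transcripts with a mean of at least 0.5 FPKM, and in the authors' deposited table the 3 expressed Nfatc1 transcripts had q = 0.998, with log2 fold changes of 0.68 for Nfatc1-202, 0.16 for Nfatc1-203 and 0.16 for Nfatc1-201. Of 36 listed transcripts of the 10 genes, 18 were tested in the authors' deposited table and 0 of these were significant, against 0.25% of all transcripts it tested.

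**Figure D3:**
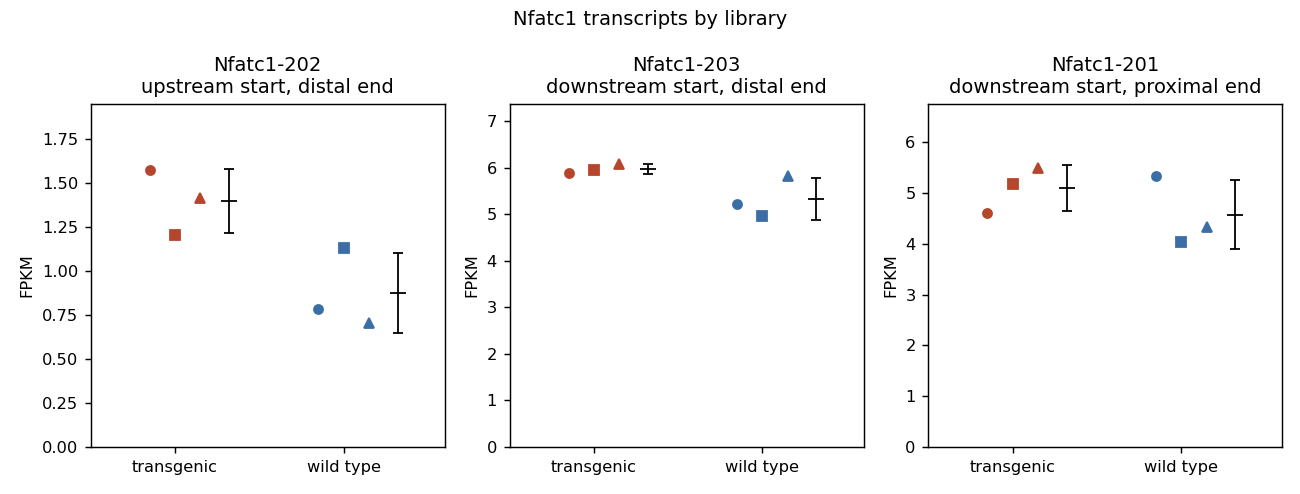
FPKM (y axes, each from 0) of the 3 Nfatc1 transcripts above 0 in transgenic (left) and wild-type (right) libraries, with circles for replicate 1, squares for replicate 2, triangles for replicate 3 and bars for the mean and SD. The upstream-start transcript lies at 1.21 to 1.57 FPKM in transgenic and 0.71 to 1.13 FPKM in wild-type libraries, well under both downstream-start transcripts.

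Nfatc3, the NFAT gene best known from double-positive thymocytes, was the most abundant of the 10 and the most tightly measured. Nfatc3 (ENSMUSG00000031902, chromosome 8, 106058840 to 106130537, plus strand) stood at 106, 117 and 110 CPM in transgenic replicates 1, 2 and 3, and at 112, 111 and 122 CPM in the wild-type replicates. The groups overlapped, and the 95% interval of the fold change ran from 0.88-fold to 1.06-fold (log2 fold change -0.05 ± 0.06, SE; edgeR, adjusted p = 0.799). At its end Nfatc3 overlaps Esrp2, a splicing factor gene on the other strand, by 219 bases. Nfatc2, which in mature T cells supports cytokine genes, was at 12.0, 13.0 and 13.9 CPM in transgenic replicates (ENSMUSG00000027544, chromosome 2, 168476410 to 168601657, minus strand). It was at 14.5, 15.1 and 9.86 CPM in the wild-type replicates, so wild-type replicates held both the highest and the lowest values. Its log2 fold change was -0.02 ± 0.17 (SE), with a 95% interval from -0.40 to 0.35 (edgeR, adjusted p = 0.972). A part of the Nfatc2 counts lay on transcripts not typed as protein-coding. These took 146, 131 and 168 fragments in transgenic replicates 1, 2 and 3, and 286, 113 and 76.8 in the wild-type replicates. Summed over the 3 NFAT genes, the libraries held 183, 195 and 191 CPM in transgenic replicates 1, 2 and 3, against 188, 179 and 187 CPM in the wild-type replicates, and the groups overlapped.

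Cd69 (ENSMUSG00000030156, chromosome 6, 129267325 to 129275436, minus strand) was detected at a low level in every library. It stood at 4.74, 6.28 and 5.77 CPM in transgenic replicates 1, 2 and 3, and at 5.79, 4.41 and 4.39 CPM in the wild-type replicates. Transgenic replicate 2 was highest, and wild-type replicate 1 lay above 2 of the transgenic libraries. The log2 fold change was 0.20 ± 0.20 (SE), with a 95% interval from -0.25 to 0.65, that is from 0.84-fold to 1.57-fold (edgeR, adjusted p = 0.726). It was 0.12 without transgenic replicate 2 and 0.35 without wild-type replicate 1. Later thymocytes express Cd69 too. Their 6 markers summed to 161 to 188 CPM in transgenic and 167 to 187 CPM in wild-type libraries, mostly Cd27, while Cd8a was at 5.54, 2.79 and 1.37 CPM in transgenic replicates and 6.90, 6.82 and 10.8 CPM in wild-type replicates. The part of such cells in the Cd69 value was not tested. In bulk RNA, fewer cells that express a gene and less of its RNA per cell cannot be told apart.

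The 10 genes did not share a common order over the libraries. Transgenic replicate 2 was the highest library for Egr2, Nr4a1, Nr4a3 and Cd69, transgenic replicate 3 for Egr1, Egr3 and Nfatc1, transgenic replicate 1 for Nr4a2, wild-type replicate 2 for Nfatc2 and wild-type replicate 3 for Nfatc3. Among 10091 or 10092 other genes with a mean of at least 5 CPM, those whose centred log2(CPM + 0.5) values were nearest over the 6 libraries were sought for the leading gene of each family. For Egr1 they were Nphp4, Acbd5 and Ttc17, with root mean square differences of 0.0122, 0.036 and 0.0402 on the log2 scale. For Nr4a1 they were Hs1bp3, Tnfsf14 and Zfp809, at 0.0629, 0.0663 and 0.0719. For Nfatc3, whose own values spanned only 0.198, they were Rngtt, Acly and Utp14a, at 0.0148, 0.0168 and 0.0181. For Cd69 they were Dynlt1a, Renbp and Ssh1, at 0.0427, 0.0498 and 0.0567. These are a description over 6 libraries and say nothing of shared control.

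Upstream of these genes, the lists of the signalling routes held no gene that edgeR called in either direction. Of 24 tested calcium and calcineurin genes, 12 had a log2 fold change above 0 and 12 below, and the median was 0.002. Gsk3b, a kinase that returns NFAT to the cytoplasm, differed by 0.14 ± 0.05 on the log2 scale and Ppp3cc, a calcineurin catalytic subunit, by -0.38 ± 0.13 (SE), without a call by either tool. Of the list, 4 genes were higher and 3 lower at an unadjusted p under 0.05, where all genes gave 5.71% higher and 7.7% lower.

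On the Ras-ERK route 14 of 28 tested genes lay above 0 and 14 below, with a median of 0.005. At an unadjusted p under 0.05 there was 1 higher and 0 lower, where all genes gave 5.71% higher and 7.7% lower. The 3 with the smallest p were Elk3, a partner of serum response factor, Ksr1, a scaffold of the kinase cascade, and Spry2, an inhibitor of the route, whose log2 differences were 0.26 ± 0.09, 0.22 ± 0.10 and -0.78 ± 0.37 (SE), none of them called. Of 18 tested genes of the receptor-proximal machinery 13 lay above 0, with a median of 0.07 and 1 gene in each direction at an unadjusted p under 0.05. Zap70, a kinase that binds the CD3 and zeta chains, was at 50.7, 40.1 and 35.0 CPM in transgenic replicates 1, 2 and 3 and 56.5, 67.3 and 49.6 CPM in the wild-type replicates (log2 fold change -0.46 ± 0.15, SE; edgeR, adjusted p = 0.226). DESeq2 called Zap70 lower and Cbl, a ubiquitin ligase that restrains receptor kinases, higher (adjusted p = 0.0255 and 0.0455). Vav1, an exchange factor of the receptor pathway, differed by 0.12 ± 0.05 on the log2 scale (SE). Of 14 tested partners of Egr and Nr4a factors 8 lay above 0, among them Mef2d at 0.11 ± 0.06 (SE), while Nab1, which binds Egr proteins and restrains them, was at -0.18 ± 0.09 (SE). These are log2 differences, their median was 0.03 over the 14 genes, and 0 of them had an unadjusted p under 0.05.

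Of 21 other genes that respond to receptor signals, 9 lay above 0 and 12 below, with a median of -0.08. At an unadjusted p under 0.05 there were 2 higher and 2 lower, where all genes gave 5.71% higher and 7.7% lower. Cd28, the costimulatory receptor, was at 49.4, 49.0 and 47.5 CPM in transgenic replicates 1, 2 and 3, against 65.1, 57.7 and 62.4 CPM in the wild-type replicates. Its groups did not overlap, as was so in either direction for 18.8% of all genes tested. Its log2 fold change of -0.34 ± 0.07 (SE) did not pass in edgeR (adjusted p = 0.159) and passed in DESeq2 (adjusted p = 0.00484). Bcl2l11, which encodes the death factor Bim, was at 60.6, 67.2 and 58.7 CPM in transgenic replicates and 48.0, 55.5 and 47.7 CPM in wild-type replicates, with a log2 fold change of 0.30 ± 0.09 (SE; edgeR, adjusted p = 0.204; DESeq2, adjusted p = 0.038). Tox, a regulator of T cell selection, had a log2 fold change of 0.22 ± 0.09 (SE).

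Immediate early and stress genes outside the Egr and Nr4a families had mostly positive differences, and edgeR called none of them. Of 20 tested, 17 lay above 0, their median was 0.34 on the log2 scale, and 10 had an unadjusted p under 0.05 with a value above 0, against 5.71% of all genes. At the same p, 0 of the 20 were lower. DESeq2 called 3 of them higher, Jund, Jun and Btg2 (adjusted p = 3.02e-05, 0.000509 and 0.0111). In edgeR, Jund and Jun, which encode AP-1 subunits, differed by 0.48 ± 0.08 and 0.51 ± 0.11, and Btg2, an inhibitor of proliferation, by 0.35 ± 0.11 on the log2 scale (SE). Summed over Fos, Fosb, Jun, Junb, Dusp1 and Ier2, transgenic replicates 1, 2 and 3 held 282, 262 and 384 CPM. The wild-type replicates held 234, 230 and 188 CPM, with no overlap. Taken alone, Fosb, Jun and Ier2 did not overlap between the groups, and Fos, Junb and Dusp1 did. Of all genes tested, 8.73% had all transgenic values above all wild-type values. Fos, the partner of Jun in AP-1, was at 22.6, 18.2 and 38.6 CPM in transgenic replicates and 20.7, 15.2 and 8.26 CPM in wild-type replicates, while Hspa1b, an inducible heat shock gene, was at 130, 80.5 and 259 CPM in transgenic replicates and 40.9, 66.1 and 32.2 CPM in wild-type replicates. Transgenic replicate 3 was the highest library for Fos, Fosb, Jun, Junb and Hspa1b, as for Egr1, and wild-type replicate 3 the lowest for each of these 6 genes. Not all genes of the list had this order: Ier2 and Btg2 were highest in transgenic replicate 1, and Ier2 was lowest in wild-type replicate 1. Whether the immediate early and stress genes and the Egr and Nr4a genes differ in their response was not tested. The part that handling has in either was not tested.

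**Figure D4:**
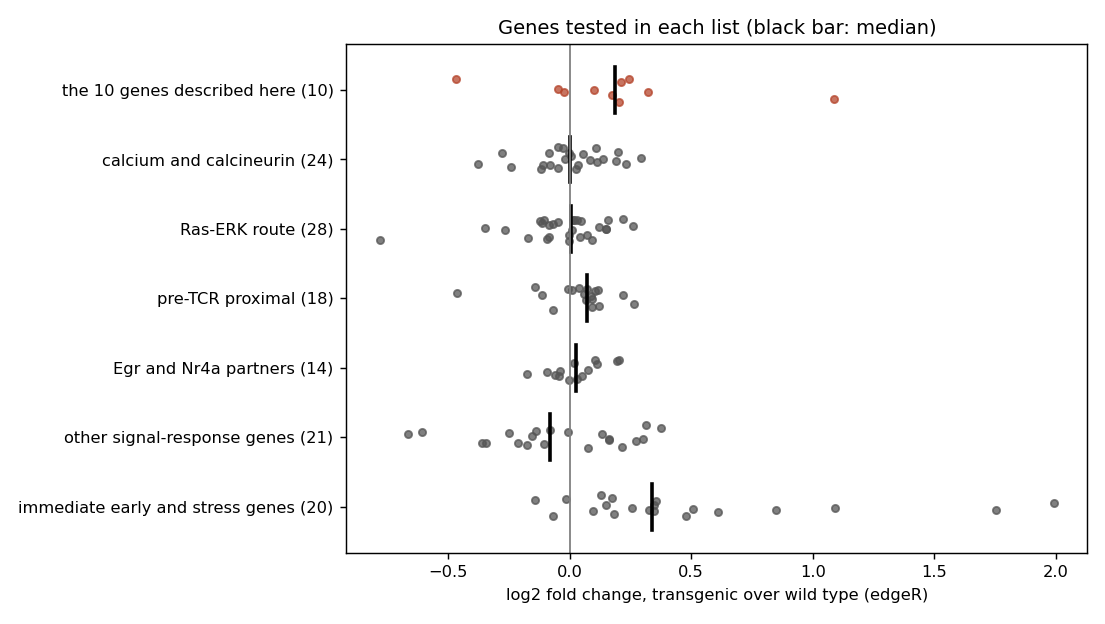
Log2 fold change, transgenic over wild type (x axis), of each tested gene in the set of 10 genes and in 6 lists of signalling genes (points, spread vertically for visibility; black bar, median; number tested in parentheses). The median is 0.19 for the 10 genes, between -0.08 and 0.07 for the 5 lists of signalling routes, partners and other responsive genes, and 0.34 for immediate early and stress genes.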

How the data were processed

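Total RNA was depleted of ribosomal RNA before library preparation, per the labels' protocols. The submitters' processing notes name TopHat2, Cuffdiff and mm10, without versions; neither annotation, read length nor use of strand was stated there. The deposited table gives, per the file headers, an estimated count of fragments and an FPKM value for each of 100144 transcripts and 6 libraries, with the authors' own log2 fold change and q-value. Over the transcripts of each symbol these were added up and then rounded. Genes at loci marked HIDATA, which are failed estimates (197 genes, no member among them), were left out. edgeR 4.0.16 (R 4.3.3, filterByExpr with minimum count 10, TMM, quasi-likelihood test, two-sided, no covariate) compared the 3 transgenic with the 3 wild-type libraries over 14653 genes, with Benjamini-Hochberg adjustment and a threshold of 0.05. It was also run on simulated data, drawn with the means and dispersions of this fit and with changes added to some genes. The share of those changes that it called is not given here. Standard errors come from the F statistic, and 95% intervals from it with 4 residual and 5.61 prior degrees of freedom. CPM are counts per 1000000 TMM-scaled fragments. The allowance of 3 fragments for a count of 0 covers counting error only. FPKM was summed per symbol and not tested in the main comparison. Chi-square per gene between libraries of a group was 16.7 to 44.5, so none was a copy of another's counts. This check cannot show whether libraries came from the same animal or pool. Per-sample columns of no labelled sample numbered 0. Gene positions were taken from GENCODE M21 (GRCm38) by gene ID.

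The members, lists and alternatives were chosen with earlier results of these data known. Named genes are the members, Gata3, markers, the 3 list genes with the smallest p (some of these are not reported here), 6 immediate early genes and the 3 nearest genes per leading member. Genes called by DESeq2, and Cd8a and Cd8b1 among the markers, were named with their values already known. The tests were repeated with DESeq2 1.42.0, with limma 3.58.1 on log2(FPKM + 0.1) and on log2(FPKM + 0.5) where mean FPKM reached 1, with other scaling, filters and dispersion prior, with failed loci kept, the replicate number as a block, and libraries left out.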

Additional observations from a re-analysis of the deposited data

How the results depend on the processing

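Under none of the 16 alternatives was any of the 10 genes called, and their smallest adjusted p was 0.0637, for Nfatc1 without wild-type replicate 1. The count called was 0 in each, and the median log2 fold change of the members tested ran from 0.0935, where a mean FPKM of at least 5 left 2 of them, to 0.209 with limma on log2(FPKM + 0.1). Over all genes the calls numbered 2 in edgeR, 497 in DESeq2, 127 with no filter on low counts, 92 with failed loci kept, 20 with a robust dispersion prior, 498 without wild-type replicate 1 and 260 without both libraries with Y-linked RNA; the cause was not tested. The labels do not say whether the replicate numbers pair the samples, and the values do not settle it. Same-numbered libraries deviated together with correlations of 0.18, 0.138 and 0.00165, while those with different numbers reached at most 0.158. Of 6 libraries, 3 correlated best with their own number. With the replicate number as a block, 14 genes and 0 members were called and the members' median was 0.151. Of 146 member values under alternatives, 135 kept their sign and 11 turned: Nfatc2 was 0.0397 and 0.0327 with limma on log2(FPKM + 0.1) and log2(FPKM + 0.5), and 0.000195 without both libraries with Y-linked RNA, where Egr3 was -0.151. Leaving out 1 library moved Nfatc2 from -0.195 to 0.0894, Nr4a2 from -0.312 to 0.486, Nr4a3 from -0.0856 to 0.607 and Egr1 from -0.0272 to 0.169. With no change of sign, Egr2 ran from -0.866 to -0.203, Nr4a1 from 0.0939 to 0.44, Cd69 from 0.117 to 0.348, Nfatc1 from 0.172 to 0.274 and Nfatc3 from -0.0801 to -0.00137; Egr3 ran from 0.422 to 6.12, its value without wild-type replicate 2, where its wild-type libraries are all at 0. Egr3, Egr2, Nr4a2 and Nr4a3 had under 130 fragments a library, and the fitted variation beyond counting error was 35.4% for Egr2, 39.6% for Nr4a2 and 45.6% for Nr4a3, so counting error is not their only limit.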
